A study of Mus musculus with 11 samples.

Results

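Cycling intermediate progenitors (IPs) of the embryonic mouse neocortex were picked from scRNA-seq of 1 WT and 1 Syncrip cKO embryo at E14.5. A barcode was kept with 1000 genes or more and no more than 10% of its UMIs mitochondrial, a UMI (unique molecular identifier) being 1 captured transcript. A kept cell was a cycling IP when it held at least 3 UMIs of Eomes, at least 1 of Neurog2, at most 1 of Dlx1, Dlx2, Dlx5 and Dlx6os1 together, and at least 3 of Top2a and Mki67 together. By this rule 318 of 16335 kept cells were cycling IPs, 135 of 7554 in the WT and 183 of 8781 in the cKO library. These 8 genes chose the cells, so their own levels are a description and support nothing.

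In the developing neocortex, apical progenitors (APs), among them the radial glia, line the ventricle and carry Pax6, Sox2, Notch receptors and the Notch targets Hes1 and Hes5. Some of their daughters take up Eomes (Tbr2) and Neurog2, leave the ventricular surface and become IPs, which divide in the subventricular zone and yield excitatory neurons. IPs carry Notch ligands such as Dll1, through which they signal to neighbouring APs. An IP that is still dividing therefore holds the transcripts of mitosis, of its own proneural program, and often some that it took over from its AP mother.

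The WT and the cKO embryo came from 1 mother, on a C57BL/6 background. In the cKO, loxP sites flank some exons of Syncrip (Syncrip fl/fl), which encodes an RNA-binding protein. The study uses cKO for Syncrip fl/fl mice with Emx1-Cre, which is made in dorsal telencephalic progenitors and their offspring. The dorsal telencephalon was dissected and sequenced by a droplet method that reads the 3′ end of transcripts. There were 8289 barcodes in WT (100172392 UMIs) and 9659 in cKO (111313526 UMIs). The libraries shared 22 barcodes, none of them a cycling IP. RNA-seq of neural progenitor cells (NPCs) taken at E14.5 and grown with EGF and bFGF, 3 WT and 3 cKO cultures, was used as a separate readout. LACE-seq, which maps RNA bound by Syncrip, was not used here.

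With 1 embryo per genotype the single-cell comparison has no replicates, so no test between genotypes was made. All intervals on UMI counts and on shares of cells are exact 95% intervals that cover counting error only. The embryos also differed in sex, since the WT library held 22085 UMIs of Y-linked genes and 2 of Xist, against 211 and 105503 in the cKO library. Sex and genotype therefore cannot be told apart in these 2 libraries. Syncrip itself stood at 332 CPM (UMIs of a gene scaled to a fixed total per group) in WT and 340 CPM in cKO cycling IPs, a log2 ratio of 0.03 (−0.09 to 0.15). Reads from the 3′ end need not pass through the deleted exons, so this level does not check the deletion.

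Cycling IPs held the markers that named them and were deep cells. Their median was 17791 UMIs in WT and 18597 in cKO, against 12186 and 11445.5 in all other kept cells. In WT the median cell carried 9 Eomes, 8 Neurog2, 7 Top2a and 6 Mki67 UMIs, and in cKO 10, 9, 15 and 5. Of all cells that met the Eomes, Neurog2 and Dlx limits, 135 of 1066 (12.7%, 10.7 to 14.8) in WT and 183 of 1113 (16.4%, 14.3 to 18.8) in cKO were cycling. The mm10 positions of the 4 naming genes are chr9:118478212-118486132 for Eomes, chr3:127633135-127635631 for Neurog2, chr11:98992943-99024189 for Top2a and chr7:135689784-135716361 for Mki67.

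The cells just inside and just outside the limits of the rule are given here as a description. The 8 WT and 23 cKO cells with exactly 3 Eomes UMIs had an AP marker sum of 6906 and 4746 CPM, and the 18 and 24 cells just outside, with 2 Eomes UMIs, had 4901 and 6907 CPM. Their G2/M lists summed to 3912 and 3703 CPM inside and to 4248 and 4707 CPM outside. Cells with exactly 3 Top2a and Mki67 UMIs had 1924 and 1687 CPM of the G2/M list, which leaves these 2 genes out, and those just outside, with 2, had 316 and 597 CPM.

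The program Scrublet called 9 of 135 WT cycling IPs (6.67%) and 26 of 183 cKO ones (14.2%) doublets, against 3.34% and 4.08% of all kept cells. There were 4 WT and 12 cKO members above 50000 UMIs. All were kept, and the main ratios between the libraries are also given without the 12 WT and 34 cKO cells of either kind. Of other cell types, the microglia list summed to 9.22 CPM in WT and 8.29 CPM in cKO members, against 63.9 and 60.2 CPM in all other cells. The ganglionic eminence list, whose Dlx genes the rule limits, summed to 66.8 CPM in WT and 63.1 in cKO members, against 25 and 42 CPM in IPs without Top2a and Mki67 UMIs under the same limit. The Cajal-Retzius list, led by Reln, summed to 31.7 CPM in WT and 22.6 in cKO members, with 2 of its 6 genes at 0.

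Against all other cells, all 22 genes of the G2/M list and 16 of the 19 measured S-phase genes were at least 2-fold higher in cycling IPs of both libraries. The largest ratios over all other cells in both libraries, by the smaller of the 2, belonged to Sapcd2, Neil3, Hmmr, Cenpe, Kif2c, Sgo2a, Cdca2, Ccnb1, Aurka, Ndc80 and Tpx2, with Top2a of the rule beside them. Cenpe, a kinetochore motor, stood at 272 CPM in WT and 237 in cKO cycling IPs and at 33.3 and 30.8 CPM in the other cells. Sapcd2, a regulator of spindle orientation, stood at 67.5 and 60.1 CPM against 8.21 and 7.42 CPM. Among 8278 genes with at least 100 UMIs in cycling IPs, 581 (7.02%) were at least 2-fold higher and 318 (3.84%) at least 2-fold lower than in all other cells in both libraries. Since the rule asked for Top2a and Mki67, the list of higher genes describes the choice of cells. The limit leaves out genes scarce in cycling IPs, so the numbers of higher and lower genes cannot be set against each other. Shares of all genes against other groups of cells, here and below, are of genes past this limit, as are the list counts.

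Several of these leading genes carry short elements known from cell cycle promoters, shown here to place the finding in sequence. The windows below are 30 bases of mouse genome around 1 match per gene (RefSeq, GRCm38.p6), read 5′ to 3′ on the strand of the gene. The match to TTTGAA, or to TTCAAA where it lies on the other strand, is in capitals. Top2a holds another match, at chr11:99024195-99024224, that is not shown. The element TTTGAA is the core of the CHR element of G2/M genes, and the last window is from Kif26b, the gene with the largest ratio over cycling APs. It is the 1 of 8 leading genes of that comparison with a promoter sequence that held TTTGAA (12.5%).
Hmmr: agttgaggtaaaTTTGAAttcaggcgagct
Aurka: aaaaggagaaccTTTGAAttgtaacggctg
Top2a: ctattggtccatTTTGAAgattctcccgcc
Kif2c: ccaggctgctctTTCAAAcctgagtaatgc
Ndc80: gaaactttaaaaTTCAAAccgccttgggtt
Kif26b: tgggagaatttcTTTGAActcagttagcga
They lie at chr11:40733412-40733441, chr2:172370521-172370550, chr11:99024351-99024380, chr4:117178858-117178887 and chr17:71526811-71526840 on the minus strand and chr1:178529104-178529133 on the plus strand.

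Of the 12 leading genes 10 had a promoter sequence (250 bases before to 50 after the start), and 5 of these held TTTGAA and 6 CCAAT on either strand. Of all 27025 genes with such a sequence, 20.2% held TTTGAA and 41.1% CCAAT. Among the 461 genes with a promoter that were at least 2-fold higher in cycling than in non-mitotic IPs, 31.5% held TTTGAA and 59% CCAAT. Among the 261 that were at least 2-fold higher than in cycling APs, 12.6% held TTTGAA and 41% CCAAT. The proneural E-box CAGATG was held by 11.7% and 17.6% of these 2 sets and by 19.2% of all genes. A match is a run of letters and not a measured binding site.

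Other groups of cells of the same libraries were set beside the cycling IPs. IPs without mitotic transcripts met the same Eomes, Neurog2 and Dlx limits with no UMI of Top2a or Mki67 (743 WT and 740 cKO cells). Cycling APs had no Eomes UMI, at least 1 each of Pax6 and Sox2, few Dlx UMIs and at least 3 of Top2a and Mki67 (270 and 394 cells). Cycling Dlx-positive cells, from the ganglionic eminence lineage, had at least 3 Dlx UMIs, no Eomes and the same mitotic limit (130 and 157 cells). These limits used Eomes, Neurog2, Pax6, Sox2, Top2a, Mki67 and the Dlx genes, whose levels between the groups are again a description.

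Against IPs without mitotic transcripts, the listed genes of replication and division were higher in cycling IPs. All 22 genes of the G2/M list were at least 2-fold higher in both libraries, with a median log2 ratio of 6.0 in WT and 5.84 in cKO, and so were 18 of the 19 S-phase genes with at least 100 UMIs. Among the 8276 genes with at least 100 UMIs in cycling IPs, 609 (7.36%) were at least 2-fold higher and 66 (0.797%) at least 2-fold lower. The lower ones numbered 117 without doublets and 107 also without members over 50000 UMIs. Genes scarce in cycling IPs could not be counted as lower, and the rule itself separates these groups by mitotic transcripts. Ccnb1, the cyclin that drives entry into mitosis, stood at 235 and 231 CPM in WT and cKO cycling IPs against 2.28 and 2.37 CPM, log2 ratios of 6.69 (6.09 to 7.36) and 6.61 (6.0 to 7.29). Bub1, a kinase of the spindle checkpoint, stood at 109 and 89.6 CPM against 0.793 and 0.755 CPM.

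Few listed genes were far lower than in IPs without mitotic transcripts, with 1 of 12 neuron genes, Neurod1, and 1 of 15 IP genes, Nhlh1, at least 2-fold lower in both libraries, against 0.797% of all genes. Nhlh1, a bHLH factor of newly born neurons, stood at 12.9 and 15 CPM in cycling IPs against 43.5 and 52.1 CPM, log2 ratios of −1.75 (−2.29 to −1.25) and −1.80 (−2.20 to −1.42). Nhlh2 stood at 7.38 and 8.06 CPM against 37.6 and 29.6 CPM, and St18, a zinc finger factor, at 24.0 and 32.0 CPM against 91.5 and 98.2 CPM. Neurod1, which follows Eomes on the way to a neuron, stood at 114 and 125 CPM against 290 and 293 CPM. The neuron marker sum of cycling IPs, 2512 CPM in WT and 2494 in cKO, lay below that of IPs without mitotic transcripts, 4299 and 3983 CPM.

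The IP list was somewhat lower than in non-mitotic IPs, with sums of 3693 CPM in WT and 3371 in cKO against 4622 and 5401 CPM, and with few genes far apart. None of its 15 genes was 2-fold higher in both libraries, against 7.36% of all genes, a share at which 0 of 15 says little about the list. Insm1, a zinc finger factor that promotes the birth of basal progenitors, was the member furthest above, at 378 and 286 CPM against 197 and 193 CPM. Hes6, an antagonist of Hes1, stood at 317 and 272 CPM against 276 and 332 CPM, and Dll1 at 39.1 and 37.5 CPM against 36.5 and 38.7 CPM.

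**Figure D1:**
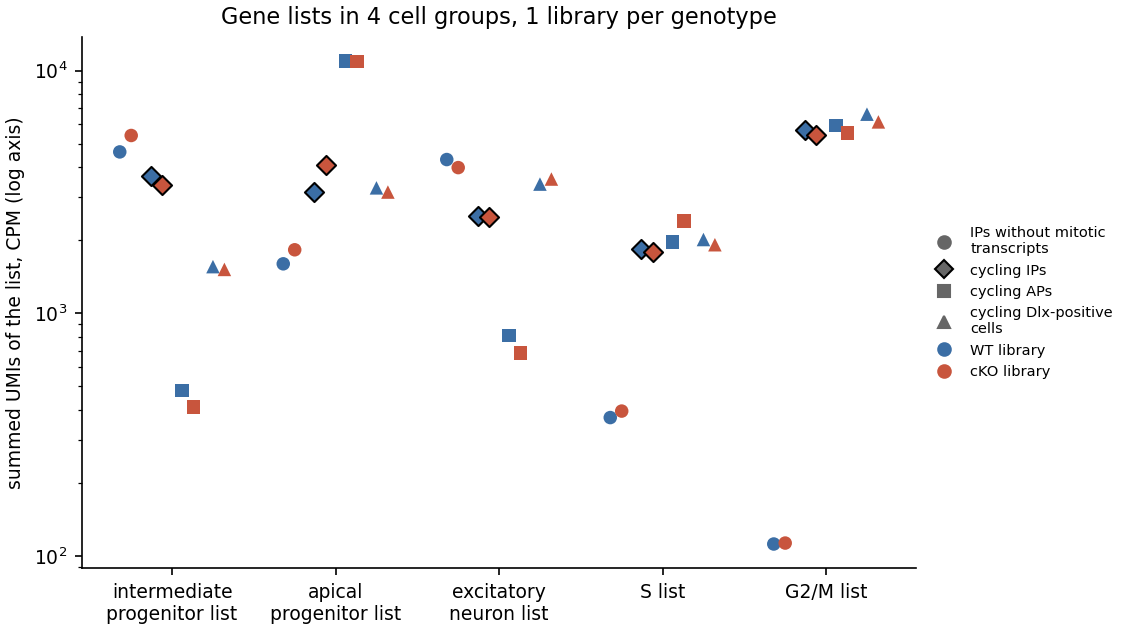
Summed UMIs of 5 gene lists (CPM, log axis) in 4 groups of cells, 1 point per library, with symbols for the group and colours for WT and cKO. Cycling IPs (diamonds, outlined) sit beside cycling APs on the S and G2/M lists, beside non-mitotic IPs on the IP list, and between both on the AP and neuron lists.

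Cycling APs were chosen with the same limit on Top2a and Mki67, so that like levels of G2/M genes follow in part from the choice. None of the 22 G2/M genes and none of the 19 S-phase genes was 2-fold different either way in both libraries, against 4.31% of all genes higher and 1.82% lower, so that few would be called at that share. The G2/M medians were 0.01 in WT and 0.01 in cKO, and the S-phase medians −0.13 and −0.54. Tpx2, a spindle assembly factor, stood at 337 and 288 CPM in cycling IPs and at 303 and 257 CPM in cycling APs. Cenpe was the G2/M gene furthest above in cKO, with log2 ratios of 0.31 (0.17 to 0.44) in WT and 0.46 (0.34 to 0.58). On the S-phase list the cycling APs of the cKO library were higher, with a sum of 2397 CPM against 1788 CPM in its cycling IPs, and the WT sums were 1968 and 1846 CPM.

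Against cycling APs, 14 of 15 IP genes and 8 of 12 neuron genes were at least 2-fold higher in both libraries, the IP list holding genes of the rule, and 12 of 16 AP genes at least 2-fold lower. Among 8277 genes with at least 100 UMIs in cycling IPs, 357 (4.31%) were at least 2-fold higher and 151 (1.82%) at least 2-fold lower in both libraries. Without doublets in any group and without members over 50000 UMIs, these were 435 and 299 genes. The largest ratios belonged to Kif26b, Thrb, Clvs1, Myt1, Igsf21, Cbfa2t3, Plcxd3, Mfng, Slc17a6 and Sstr2. Kif26b, a kinesin family protein, stood at 245 and 214 CPM in cycling IPs, 2.95 and 2.29 CPM in cycling APs and 464 and 455 CPM in non-mitotic IPs. Its log2 ratios over cycling APs were 6.38 (5.62 to 7.26) and 6.55 (5.82 to 7.39). Mfng, a glycosyltransferase that modifies Notch receptors, stood at 124 and 131 CPM against 8.42 and 6.71 CPM.

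The genes lowest against cycling APs were Tnc, Ddit4l, Lipg, Lfng, Rgcc, Hes1, Grik1, Pdzph1, Ccn1 and Fabp7. Hes1 stood at 29.9 and 54.3 CPM in cycling IPs and at 183 and 244 CPM in cycling APs, log2 ratios of −2.61 (−2.96 to −2.28) and −2.17 (−2.37 to −1.97). Fabp7, a fatty acid binding protein of radial glia, stood at 787 and 1016 CPM against 4136 and 4086 CPM, and Tnc, a matrix protein, at 9.96 and 8.75 CPM against 98.3 and 62.1 CPM. Hes1 and Fabp7 were higher in cycling than in non-mitotic IPs, which held 5.65 and 9.82 CPM of Hes1 and 299 and 290 CPM of Fabp7. Without doublets and deep cells, cycling IPs held 19.5 and 24.8 CPM of Hes1. Thinned to 5000 UMIs a cell, 3.73% of WT and 10.1% of cKO cycling IPs held Hes1, with 0.0597 and 0.151 UMIs a cell, against 2.18% and 3.83% of non-mitotic IPs, with 0.0259 and 0.0478 UMIs a cell. Over the AP list, 9 of 16 genes were at least 2-fold higher than in non-mitotic IPs in both libraries, against 7.36% of all genes.

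**Figure D2:**
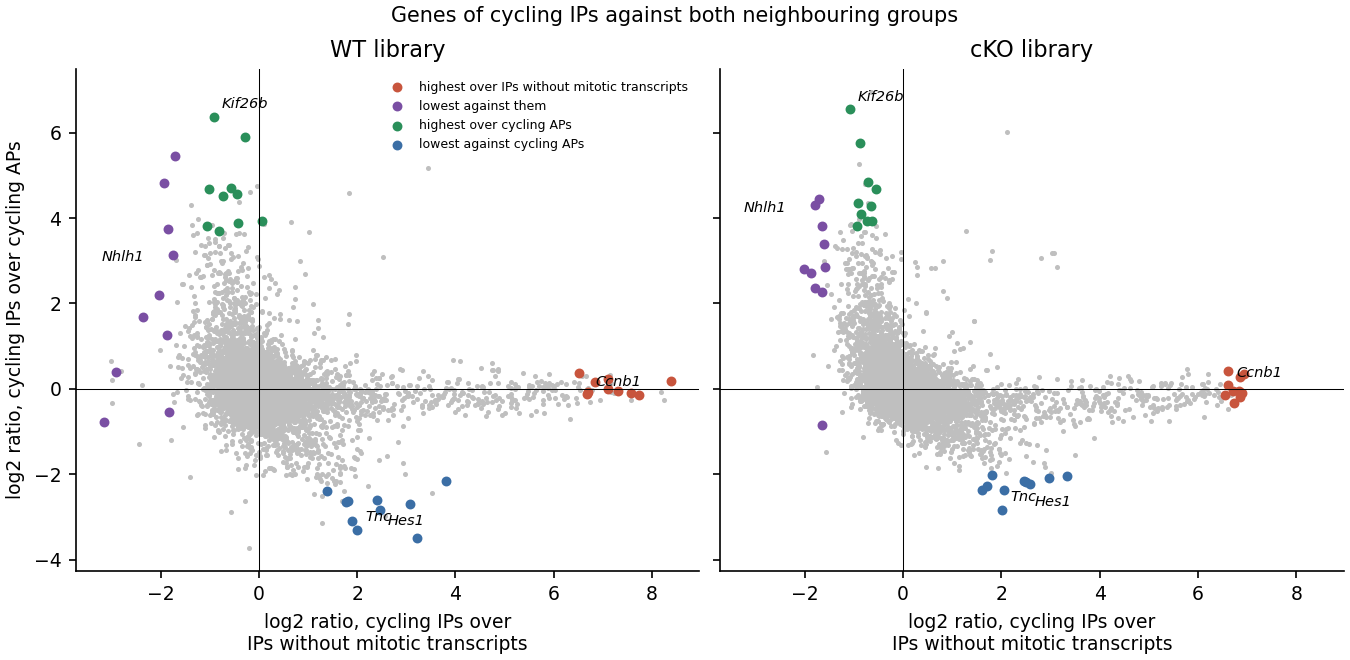
Each gene with at least 100 UMIs in cycling IPs by its log2 ratio over IPs without mitotic transcripts (x axis) and over cycling APs (y axis), 1 panel per library, with the 10 leading genes of each direction in colour. Genes of division lie far right at a ratio near 0 against cycling APs, and Kif26b lies highest, at 6.38 in WT and 6.55 in cKO.

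Of 14 measured Notch pathway genes, 5 were at least 2-fold higher and 5 at least 2-fold lower than in cycling APs in both libraries, against 4.31% and 1.82% of all genes. The ligands were higher, Dll1 at 39.1 and 37.5 CPM against 6.31 and 4.58 CPM, and Dll3, a ligand-like inhibitor, at 24.4 and 17.5 CPM against 1.68 and 1.22 CPM. Among the receptors, Notch2 was lower, at 58.7 and 69.8 CPM against 182 and 170 CPM, while Notch1 stood at 119 and 125 CPM against 153 and 163 CPM. The targets Hes1, Hes5 and Hey1 were all lower, Hey1 at 19.6 and 21.2 CPM against 40.4 and 44.4 CPM. The nuclear effector Rbpj stood at 175 and 170 CPM against 137 and 136 CPM.

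Of 15 measured genes of G1 and cycle exit, 5 were at least 2-fold higher and 1, Cdkn1c, at least 2-fold lower than in non-mitotic IPs in both libraries, against 7.36% and 0.797% of all genes. Cdkn1c (p57), an inhibitor linked to cycle exit, stood at 53.5 CPM in WT and 35.2 in cKO cycling IPs, at 11.8 and 3.66 CPM in cycling APs, and at 225 and 83.1 CPM in non-mitotic IPs. E2f1, a driver of S-phase entry, stood at 84.9 and 73.2 CPM, above both cycling APs (29.5 and 37.7 CPM) and non-mitotic IPs (24.1 and 31.4 CPM). Of 11 measured genes of migration and morphology, 8 were at least 2-fold higher than in cycling APs in both libraries, against 4.31% of all genes, such as Rnd2, a small GTPase of migrating neurons, at 217 and 181 CPM against 30.5 and 20.4 CPM.

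The upper layer gene Unc5d, also a marker of late IPs, stood at 846 and 814 CPM in cycling IPs, 129 and 98.4 CPM in cycling APs and 2064 and 1757 CPM in non-mitotic IPs. Of 8 upper layer genes, Unc5d alone was at least 2-fold lower than in non-mitotic IPs in both libraries, against 0.797% of all genes, and none was 2-fold higher, against 7.36%. Of the 11 migration genes, 2 were 2-fold lower than in non-mitotic IPs in both libraries, Unc5d and Robo2, and none was 2-fold higher. None of the 8 deep layer genes differed 2-fold from non-mitotic IPs in both libraries.

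The cells themselves ranged from AP-rich to neuron-rich. In 53 of 135 WT (39.3%, 31.0 to 48.0) and 83 of 183 cKO members (45.4%, 38.0 to 52.9), the AP list had more UMIs than the neuron list, and in 80 and 98 it had fewer. Per 10000 UMIs of a cell, the AP list ran from 3.60 to 114 with a median of 15.6 in WT, and from 2.65 to 169 with a median of 16.8 in cKO. Thinned to 5000 UMIs, the 2 lists had a Spearman correlation of −0.65 over 134 WT and −0.61 over 179 cKO cells. This is a description of cells of 1 library each that share 1 total, so that more of 1 list leaves less room for another.

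The IP and G2/M lists are given at both ends of that range as a description. The rule asked every member for Eomes, Neurog2 and mitotic UMIs, and the IP list holds genes of the rule. In AP-richer members the IP list summed to 3670 CPM in WT and 3264 in cKO, and in neuron-richer ones to 3698 and 3518 CPM. The G2/M list summed to 5022 and 4612 CPM at the AP end and to 6295 and 6407 CPM at the neuron end. The migration list summed to 1982 and 2559 CPM at the AP end and to 5234 and 5644 CPM at the neuron end. It shares Dcx and Nrp1 with the neuron list, by which the cells were split, so part of this difference follows from the split. Lists of blood and vessel cells were highest in AP-richer cKO members. The red blood cell list was at 1223 CPM there, against 81.8 CPM in neuron-richer cKO members and 89.5 and 76.3 CPM in the AP-richer and neuron-richer WT ones. The endothelial list was at 143 CPM, against 1.11, 8.13 and 8.93 CPM, and the pericyte list at 43.6 CPM, against 1.66, 0 and 1.37 CPM. Without doublets and deep cells, all cKO members together held 1.44, 1.08 and 74.6 CPM of the endothelial, pericyte and red blood cell lists. The part of these lists in the AP-richer class was not tested.

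**Figure D3:**
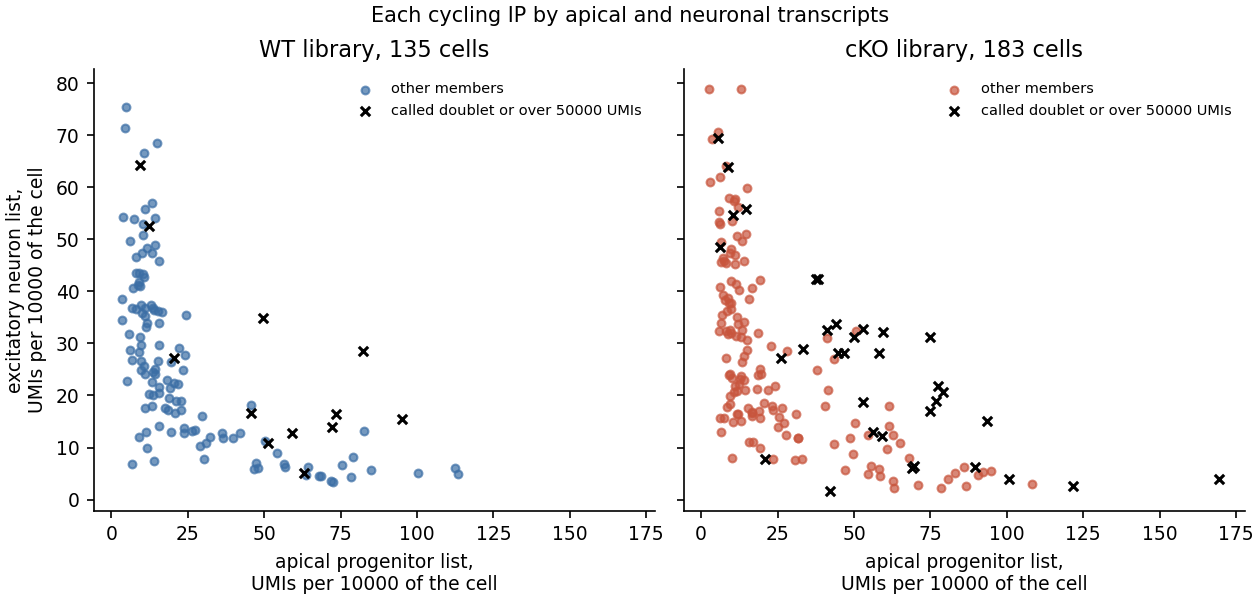
Each cycling IP as a point, by the UMIs of the AP list (x axis) and of the neuron list (y axis), both per 10000 UMIs of the cell, with 1 panel per library. Crosses mark cells called doublets or over 50000 UMIs (12 in WT, 34 in cKO), and many of the cKO ones hold AP and neuron transcripts together.

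Most members held Pax6 or Neurod1, and many both. Of the WT members, 47 held Pax6 without Neurod1, 15 Neurod1 without Pax6, 71 both and 2 neither, and of the cKO members 57, 8, 110 and 8. At 5000 UMIs a cell, 60.4% of 134 WT and 55.9% of 179 cKO members held a Pax6 UMI (87.4% and 91.3% unthinned), and 35.1% and 41.9% held a Neurod1 UMI (63.7% and 64.5% unthinned). Cycling APs, which should lack Neurod1, gave 1.91% and 4.70% for it at the same depth. In microglia, whose medians were 16715.5 and 11644 UMIs, 0 of 19 and 1 of 18 thinned cells held Pax6, with exact upper bounds of 17.6% and 27.3%. Hes1 was held by 3.73% (1.22 to 8.49) and 10.1% (6.07 to 15.4) of thinned members, against 2.18% (1.25 to 3.52) and 3.83% (2.56 to 5.48) of thinned non-mitotic IPs, 46.6% and 62.1% of thinned cycling APs and 1 of 19 (5.26%, 0.133 to 26.0) and 1 of 18 (5.56%, 0.141 to 27.3) thinned microglia, which are too few cells to set a background level.

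Members also differed in which cell cycle list held more UMIs. The G2/M list, without Top2a and Mki67, had more UMIs than the S list in 107 WT and 141 cKO members, and the S list had more in 26 (19.3%, 13 to 26.9) and 41 (22.4%, 16.6 to 29.1). The S list has 20 and the G2/M list 22 genes, the G2/M list is the more abundant of both (5699 against 1846 CPM in WT), and the rule asked for 2 genes of late phases, so no phase is read from these shares.

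Between the libraries, cycling IPs made up 1.79% (1.5 to 2.11) of kept cells in WT and 2.08% (1.80 to 2.40) in cKO, intervals that overlap. Without Scrublet doublets the shares were 1.73% and 1.86%. Among cells of the IP rule, the cycling share was 12.7% in WT and 16.4% in cKO, as above.

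The AP list was higher in cKO than in WT cycling IPs, and most of that difference was gone without the cells that were deep or called doublets. Its sum was 3169 CPM in WT and 4093 in cKO, 15 of 16 genes had a log2 ratio above 0, and the median was 0.31. Without the 12 and 34 doublets and cells over 50000 UMIs, the sums were 2731 and 2857 CPM, 9 of 16 genes were above 0 and the median was 0.04. The same median was −0.04 in cycling APs and 0.20 in non-mitotic IPs, and over all 8278 genes it was −0.002. Slc1a3, a glial glutamate transporter, moved from 0.57 to 0.01 and Fabp7 from 0.37 to −0.02, while Id4, an inhibitor of bHLH factors, stayed at 0.49 and Aldoc, a glycolytic enzyme of glia, at 0.52.

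Over all genes with at least 100 UMIs, 317 of 8278 (3.83%) had a log2 ratio of at least 0.5 and 135 (1.63%) of −0.5 or below, 5.46% together. On the AP list 5 of 16 genes were at least 0.5 higher and none lower. Without doublets and members over 50000 UMIs, 296 genes (3.58%) were higher and 286 (3.46%) lower, and on the AP list 1 gene was higher and none lower. Of the 15 IP list genes, some of them genes of the rule, none passed 0.5 either way, with a median of −0.11. The 12 neuron genes had 1 past 0.5, Nrp1, with a median of 0.10. None of the 22 G2/M genes or the 19 S-phase genes passed 0.5, with medians of −0.07 and −0.10. Without those cells the medians of these 4 lists were −0.07, 0.14, 0.03 and −0.005, so that the sign of the G2/M median turned.

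Of the 8 measured temporal early genes, 5 had a ratio above 0 in cycling IPs, with a median of 0.16. At least 0.5 higher were 2, Hmga2 and Hes1, and none was 0.5 lower, against 3.83% and 1.63% of all genes. Top2a, a gene of the rule, is among the 8, so the counts and medians of this list are a description. Without doublets and deep cells 6 of 8 were above 0 and 1, Hmga2, at least 0.5 higher, with a median of 0.21. Hmga2 had the largest ratio of the list in both. Hmga2, a chromatin protein of early progenitors, stood at 28.0 CPM (22.1 to 35.1) in the WT members and at 56.2 CPM (49.4 to 63.7) in the cKO ones, a log2 ratio of 1.0 (0.63 to 1.39), and 0.96 (0.48 to 1.46) without doublets and deep cells. In cycling APs, where it was more abundant, the ratio was 0.55 (0.40 to 0.71). In non-mitotic IPs it was 0.48 (−0.18 to 1.15), at 3.57 and 4.96 CPM.

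Of the 9 measured late temporal genes, 4 had a ratio above 0 in cycling IPs, none passed 0.5 either way, against 5.46% of all genes, and the median was −0.14. Without doublets and deep cells 1 of 9 was above 0, with a median of −0.20. Nfix, Nedd4, Zbtb20 and Nfib were lower in cKO and Dbi, of the same list, was higher. Nfix, a nuclear factor I protein, stood at 812 CPM (778 to 846) in the WT members and at 612 CPM (589 to 636) in the cKO ones, a log2 ratio of −0.41 (−0.49 to −0.32). Nedd4, a ubiquitin ligase, stood at 642 and 520 CPM, −0.30 (−0.39 to −0.21). For Zbtb20, a zinc finger factor, the ratio was −0.23 (−0.31 to −0.15) and for Nfib −0.19 (−0.23 to −0.14). Without doublets and deep cells the 4 ratios were −0.42, −0.32, −0.20 and −0.18, and they were also below 0 in cycling APs and in non-mitotic IPs. Of cycling Dlx-positive cells, 8.46% in WT and 16.6% in cKO were called doublets. There Nfix (interval 0.34 to 0.64) and Nfib (interval 0.49 to 0.64) had ratios above 0. Nedd4 (ratio −0.15) and Zbtb20 (ratio −0.25), given here without intervals, had ratios below 0. Whether these differ from cycling IPs was not tested.

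Hes1, Hes5 and Dbi were higher in cKO cycling IPs, and for the Notch targets the ratio was smaller without doublets and deep cells. Hes1 had a log2 ratio of 0.86 (0.49 to 1.25), which was 0.35 (−0.22 to 0.93) without doublets and deep cells, where it stood at 19.5 and 24.8 CPM, and 1.34 with all members thinned to 5000 UMIs, at 0.0597 and 0.151 UMIs of Hes1 a cell, too few to read a change from. Hes5 went from 0.51 (0.21 to 0.83) to 0.16 (−0.24 to 0.58), and to −0.11 with all members thinned, where 17.2% of WT and 16.2% of cKO members held it. Dbi, an acyl-CoA binding protein of progenitors, stood at 889 and 1172 CPM, 0.40 (0.33 to 0.47), and at 0.25 (0.16 to 0.33) without those cells. Neurod2 stood at 243 and 231 CPM, −0.07 (−0.22 to 0.07), and at 0.05 (−0.11 to 0.21) without those cells.

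Among the other listed genes, Nrp1, a receptor for semaphorins, stood at 129 CPM in the WT members, against 210 CPM in the cKO ones. Its log2 ratio was 0.71 (0.53 to 0.89) with all members and 0.70 without doublets and deep cells, but −0.74 in cycling APs. Cdkn1c had a ratio of −0.60 (−0.94 to −0.27) in cycling IPs, −0.75 without those cells, and of −1.44 and −1.69 in non-mitotic IPs and cycling APs. Nr2f1, a nuclear receptor that patterns cortical areas, was at 0.34 (0.24 to 0.45), 0.39 without those cells, with 0.56 and 0.64 in the other 2 groups.

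Many of the largest ratios between the libraries came from single cells. Among the genes furthest higher in cKO were Cldn5, Col4a1, Col4a2, Tshz2, Sparc, Rapgef5 and Sparcl1. Of the 128 Cldn5 UMIs of cKO cycling IPs, 127 were in 1 cell, and of the 120 and 111 of Col4a1 and Col4a2, genes of vascular basement membrane, 109 and 104 were in 1 cell each. Rapgef5 had 120 of 143 cKO UMIs in 1 cell. Without members over 50000 UMIs the ratio changed sign for Cldn5 (−2.49), Col4a2 (−1.49) and Rapgef5 (−0.24), and without doublets too it was −1.07 for Col4a2, −1.60 for Rapgef5 and 0.15 for Col4a1, while Tshz2 (1.18), Sparc (0.78) and Sparcl1 (1.28) stayed above 0. The endothelial list summed to 8.49 CPM in WT and 82.9 CPM in cKO members, the pericyte list to 0.738 and 25.8 CPM, and the red blood cell list to 82.7 and 738 CPM. Without doublets and deep cells these were 9.05 and 1.44, 0.905 and 1.08, and 94.1 and 74.6 CPM.

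Among the genes furthest lower in cKO were Erbb4, Kcnip1, Samd12, Slc24a3, Rgs6, Lrrtm3 and Ephb1. Of the 192 Erbb4 UMIs in WT members, 152 were in 1 cell, and the log2 ratio of −2.12 (−2.53 to −1.72) was 0.19 (−0.43 to 0.82) without doublets and deep cells. Rgs6 had 116 of 122 and Lrrtm3 51 of 63 WT UMIs in 1 cell, and without doublets and deep cells their ratios of −1.44 and −1.37 turned to 0.80 and 1.37. By contrast, Kcnip1, a potassium channel partner, stood at 62.0 and 20.5 CPM, with 35 of its 168 WT UMIs in 1 cell, and its ratio of −1.60 (−1.98 to −1.22) was −1.17 (−1.65 to −0.71) without those cells. Slc24a3, a sodium and calcium exchanger, went from −1.5 to −1.46 (−2.10 to −0.85), and Ephb1, an ephrin receptor, from −1.15 to −1.63 (−2.38 to −0.93).

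**Figure D4:**
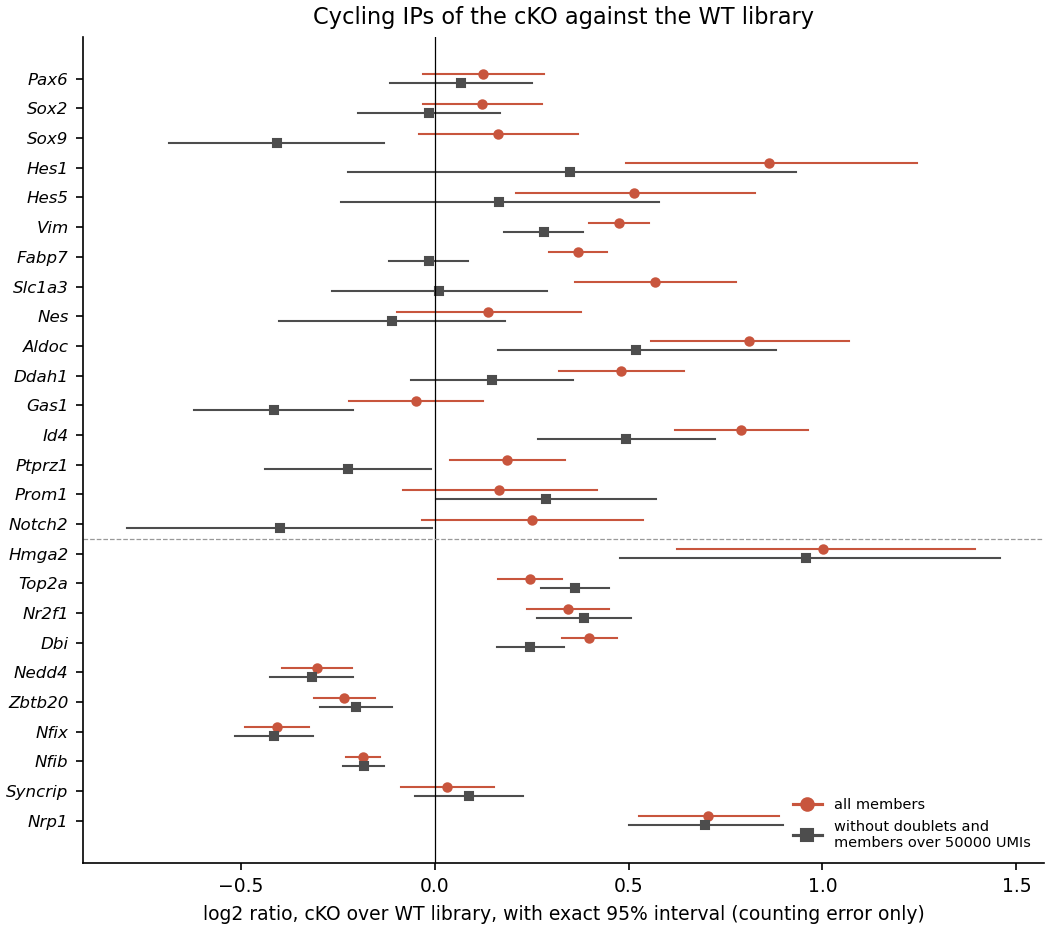
Log2 ratio of the cKO over the WT library in cycling IPs, with exact 95% intervals of counting error, for the 16 AP list genes (above the dashed line) and 10 other named genes. Circles use all members and squares leave out doublets and members over 50000 UMIs, which takes Hes1 from 0.86 to 0.35 and Slc1a3 from 0.57 to 0.01 and leaves Hmga2 and Nfix near their values.

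The cultured NPCs gave the genes of cycling IPs in replicated samples of both genotypes. Genes of division were higher in cKO cultures and most neuron and migration genes lower. The cultures held almost no Eomes, which had 4, 5 and 8 counts in the WT and 3, 1 and 1 in the cKO cultures and did not pass the filter on low counts. A bulk sample cannot tell fewer cells of a type from less RNA per cell. Totals ran from 16962903 to 22708400 counts, and no source says that the cultures came from separate animals, so the p-values measure the spread between these cultures. Y-linked genes had 8899, 5903 and 1 counts in the WT and 9232, 0 and 0 in the cKO cultures, so that sex differed within both genotypes.

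In edgeR's quasi-likelihood test with Benjamini-Hochberg adjustment, 2843 of 14432 genes (19.7%) were higher and 2858 (19.8%) lower in cKO at an adjusted p under 0.05, 39.5% together. With the sex of the culture as a term these were 2862 and 2898 genes. All 21 G2/M genes tested were higher, with a median log2 fold change of 1.11, and 11 of 18 S-phase genes were higher and none lower. Top2a stood at 68.7, 60.3 and 50.5 CPM in the WT cultures, against 99.7, 124 and 140 CPM in the cKO ones. No WT culture reached a cKO one, as the groups did not overlap for 50.4% of all genes tested, and the log2 fold change was 1.02 (SE 0.125, adjusted p = 3.26e-05). Mki67 rose by 0.76 (adjusted p = 0.000554) and Ccnb1 by 1.23 (adjusted p = 3.86e-05).

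Of the 523 tested genes that were 2-fold higher in cycling IPs than in all other cells, 275 were higher and 51 lower in cKO cultures, against 19.7% and 19.8% of all genes, with a median of 0.38. That set came from cells chosen by mitotic transcripts. All 22 G2/M genes and 16 S-phase genes were 2-fold higher there, so its counts repeat in part those of the 2 lists. Of the 318 tested genes that were 2-fold higher in cycling IPs than in cycling APs, 55 were higher and 132 lower, with a median of −0.18. Over all genes the median was 0.002.

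Within the IP list, 4 of 12 genes tested were higher and 4 lower, against 19.7% and 19.8% of all genes. Insm1 stood at 42.5, 55.6 and 60.4 CPM in the WT cultures, against 14.4, 21.5 and 21.3 CPM in the cKO ones, with every cKO culture below the WT ones (log2 fold change −1.47, adjusted p = 8.89e-06). Nhlh1 was lower by −1.96 (adjusted p = 6.09e-06), and Mfng and Rprm, a cell cycle arrest protein, by −0.43 and −0.55 (adjusted p = 0.00333 and 0.000177). Dll1, Dll3, Neurog2 and Btg2, an antiproliferative gene of neurogenic divisions, were higher, Dll1 from 49.1, 58.0 and 54.6 to 99.0, 109 and 97.6 CPM (0.92, adjusted p = 2.73e-06). Without WT replicate 1 the calls of Neurog2 (0.53) and Dll3 (0.63) were lost, and without cKO replicate 1 that of Neurog2 (0.65). Kif26b, the gene most raised in cycling IPs over cycling APs, was lower by −2.02 (adjusted p = 1.38e-05).

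The neuron list had 7 of 9 genes lower and none higher, and the migration list 9 of 12 lower and none higher, against 19.8% of all genes lower and 19.7% higher. Nrp1, which was higher in cKO cycling IPs, was lower in the cultures, from 60.3, 53.5 and 64.9 to 37.1, 35.8 and 37.3 CPM (log2 fold change −0.70, adjusted p = 8.69e-05). Cdkn1c was lower in both, here by −1.20 (adjusted p = 5.03e-06).

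Hmga2 and Hes1 were the temporal early genes with the largest rises in the cultures. Hmga2 stood at 0.811, 0.891 and 1.12 CPM in the WT cultures, against 6.13, 7.11 and 5.83 CPM in the cKO ones (log2 fold change 2.74, adjusted p = 1.06e-06). Hes1 went from 4.41, 5.24 and 5.09 to 31.3, 36.6 and 37.3 CPM (2.84, adjusted p = 2.54e-09). Nfix, Zbtb20, Nedd4 and Nfib were lower, by −0.50, −0.56, −0.31 and −0.31 (adjusted p = 0.0035, 0.00163, 0.00856 and 0.0112), and Dbi, which was higher in cKO cycling IPs, was lower by −0.58 (adjusted p = 0.000489). The call of Nfib was lost without cKO replicate 2 (−0.29) or 3 (−0.26) and that of Nedd4 without cKO replicate 3 (−0.31). Syncrip stood at 79.2 ± 1.09 CPM in the WT cultures, against 86.8 ± 4.69 CPM in the cKO ones (SD, n = 3), 0.13 (adjusted p = 0.18 in the same edgeR fit), a count over the whole gene that cannot show the loss of some exons.

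Immediate early genes differed as well. In the cultures 9 of 10 such genes passed the test as higher, against 19.7% of all genes, the median being 3.0, among them Egr1, from 57.2, 56.5 and 60.0 to 1000, 1088 and 1064 CPM (4.18, adjusted p = 1.09e-12). In cycling IPs the 5 of these genes with at least 100 UMIs had a median of −0.32, and Egr1 stood at 69.7 CPM in WT and 38.0 in cKO. Without doublets and deep cells the median was −0.53. For the same genes it was −0.20 in non-mitotic IPs, −0.15 in cycling APs and 0.12 in cycling Dlx-positive cells. The part of immediate early genes in the culture results was not tested. Sox2, Tubb3, Prc1 and Neurod1 are listed at 0 in all 6 cultures and give no value.

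**Figure D5:**
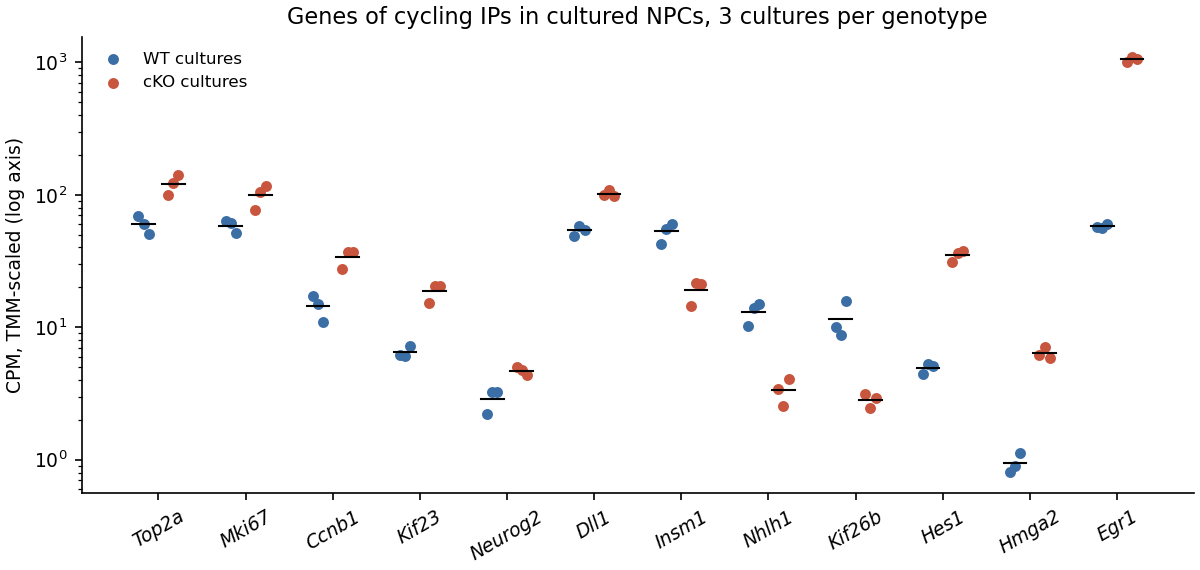
Levels of 12 genes in the cultured NPCs (CPM scaled by TMM, log axis), with 1 point per culture, 3 WT and 3 cKO, and a bar at the mean. The groups do not overlap for any of the 12, as for 50.4% of all genes tested, with division genes, Dll1, Hes1, Hmga2 and Egr1 higher and Insm1, Nhlh1 and Kif26b lower in cKO.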

How the data were processed

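The authors aligned the single-cell libraries with Cell Ranger 7.0.0 and deposited UMI counts per gene and barcode. For the cultures they aligned with HISAT2 to mm10 and deposited raw read counts per gene. No source used here names the counting program or the strand setting. Barcodes were filtered as stated in the report, and UMIs were summed per library and group and scaled to CPM, with exact Poisson, conditional binomial and Clopper-Pearson 95% intervals (Python 3.11.15, scipy 1.17.1). Doublets were called by Scrublet in scanpy 1.11.5. Counts of genes past a ratio used genes with at least 100 UMIs in cycling IPs. Leading genes against other groups had at least 200 over cycling IPs and the group compared. Culture counts were tested with edgeR 4.0.16 (TMM, filterByExpr, quasi-likelihood, Benjamini-Hochberg), in R 4.3.3, with DESeq2 1.42.0 and limma 3.58.1 as alternatives. The statistics were tested on simulated data.

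Named genes were the genes of the rule, members of the lists, the 12 with the largest ratio over all other cells, the 10 highest and 10 lowest against each neighbouring group (by the smaller ratio of the 2 libraries), and the 8 largest ratios each way between libraries, leaving out sex, mitochondrial, ribosomal protein and haemoglobin genes. The members and lists were chosen with earlier results of these data known. Some genes that this rule picks are not reported here.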

Additional observations from a re-analysis of the deposited data

Results flagged for a closer look

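Some genes had log2 ratios of cKO over WT of opposite sign in cycling IPs and in a neighbouring group, with 1 embryo per genotype, so the difference was not tested. Against IPs without mitotic transcripts, Ccn1 was at 0.50 and −1.03 and Erbb4 at −2.12 and 0.54. The haemoglobin genes Hba-a1 (3.03 and −3.11), Hba-a2 (3.37 and −2.42), Hbb-bs (3.04 and −2.79) and Hbb-bt (3.74 and −2.33) also had opposite signs. Against cycling APs, Nrp1 was at 0.71 in cycling IPs and −0.74.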

How the results depend on the processing

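The share of cycling IPs was 2.28% in WT and 2.65% in cKO with Top2a and Mki67 at 2 UMIs or more, 1.44% and 1.77% at 5 or more, and 0.58% and 0.669% when cells were thinned to 5000 UMIs. With Eomes at 5 or more it was 1.55% in WT and 1.63% in cKO, closer than the 1.79% and 2.08% of the rule. Genes at least 0.5 higher in cKO numbered 834 when thinned. Those at least 0.5 lower numbered 213 without doublets, 713 thinned, 316 with S-richer and G2/M-richer members weighted equally and 286 without doublets and members over 50000 UMIs. Genes 2-fold lower than in cycling APs numbered 245 thinned, 250 by the mean of single cells, 232 without members over 50000 UMIs and 299 without doublets too. Those lower than in non-mitotic IPs numbered 117 without doublets and 107 without doublets and deep cells. Leaving out members over 50000 UMIs, alone or with doublets, was chosen after seeing the data.

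Without doublets, the ratio of cKO over WT changed sign for Erbb4 (0.16), Rgs6 (1.28) and Lrrtm3 (1.21). Without members over 50000 UMIs it did so for Rgs6 (2.95), Lrrtm3 (0.83), Cldn5 (−2.49), Col4a2 (−1.49) and Rapgef5 (−0.24), and without both for Erbb4 (0.19), Rgs6 (0.80), Lrrtm3 (1.37), Col4a2 (−1.07) and Rapgef5 (−1.60). Thinned, Hes5 was at −0.11. The cause was not tested beyond the single cells named above.

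In the cultures, leaving out each replicate gave 2068 to 3070 genes higher and 2040 to 3275 lower. Same-numbered cultures correlated at 0.264, −0.0466 and 0.116, and differently numbered ones at −0.344 to 0.286. With 3 cultures per genotype this cannot settle whether the numbers pair the cultures, and no source says that they do. With the replicate block, 3189 genes were higher and 3216 lower, and Top2a (1.01), Mki67 (0.75) and Ube2c (1.23) lost their call. DESeq2 gave 2709 higher and 2823 lower. Depth limits genes with few UMIs per group.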
